A study of Mus musculus with 6 samples.

Results

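The solute carriers are the largest group of membrane transporter genes, and 151 of them were read well enough in these T cells to be compared between WT and Irf1-/- cultures. A gene counted as a member if its symbol was made of Slc, a number, a letter and a number and its normalized count averaged at least 50 over the 6 libraries. Slc22a4 and Slc22a5 were left out by the rule. The table held 361 genes with such a symbol among its 41388 genes, and 183 of the 361 reached the mean of 10 needed for testing, the pair left out not included. Members were thus chosen by their mean level over both genotypes, which is not a finding. Just inside the limit lay Slc25a24 with a mean of 52.1, Slc8b1 with 52.1 and Slc35e3 with 53.1, and just outside lay Slc35d2 with 48.7, Slc14a1 with 47.04 and Slc38a6 with 46.5.

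The libraries came from 3 WT and 3 Irf1-/- cultures of T lymphocytes. Naive CD4+ T cells had been taken from spleen and lymph nodes of C57BL/6 mice aged 8 to 12 weeks, activated with antibodies to CD3 and CD28, and kept for 2 days with IL-2, TGF-β and IL-4, the conditions that give IL-9-producing Th9 cells. The general culture methods also list an antibody to mouse IFN-γ in the medium, and rat IFN-γ where that cytokine was added. IFN-γ, which induces IRF1, had been added to all 6 cultures, so that both genotypes carried it and no culture without it was compared here. IRF1 is a transcription factor of the interferon response, and the Irf1-/- mice lack its function in every cell of the body, before and during the culture. A figure legend of the study describes the samples as biologically independent. The study does not say whether each culture came from its own animal.

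Solute carrier proteins move nutrients, ions, vitamins and metabolites across the plasma membrane and the membranes of organelles, driven by the solute's own gradient or by that of a coupled ion. An activated T cell raises its uptake of glucose, glutamine, leucine and other amino acids to feed growth, and exports lactate with protons. Members of the SLC25 family sit mostly in the inner mitochondrial membrane, those of SLC35 mostly in the Golgi and the endoplasmic reticulum, and those of SLC30 and SLC39 carry zinc out of and into the cytosol. The members were sorted into 10 substrate classes by family.

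Reads on genes ranged from 5639788 to 13348230 per library, largest in replicate 3 of both genotypes, and 3 reads amounted to a normalized count between 1.84 and 4.16. Reads on Irf1 itself (ENSMUSG00000018899) were lower without being absent, at 2968, 2907 and 2659.8 in WT and 1780.2, 1729 and 1476 in Irf1-/- replicates 1 to 3. The summed level of 8 T cell markers was 16743 to 17231 in WT and 17296 to 18421 in Irf1-/- libraries. The 4 Th9 markers summed to 12410 to 15567 and 17185 to 19470. Markers of other cells were low, with 2 of 3 NK markers and 2 of 3 erythroid markers at 0 in all libraries and B cell markers summing to 18.7 to 37.4. The sums over 9 myeloid markers spread from 614 to 798 in WT and from 284 to 1039 in Irf1-/- libraries. Most of these sums came from Ctss, with 559, 536 and 480.1 in WT replicates 1 to 3 and 260.3, 275 and 226 in Irf1-/- replicates 1 to 3, and from Lyz2, with 11.2, 96.2 and 23.97 in WT replicates 1 to 3 and 134, 559 and 7.03 in Irf1-/- replicates 1 to 3. Lyz2, Itgam, Csf1r and Adgre1 were highest in Irf1-/- replicate 2 and next in Irf1-/- replicate 1, so that the myeloid markers did not move together. WT replicates 1 and 2 held Y-linked transcripts, with sums of 2301 and 2306 against 11.1 or less elsewhere, and the other 4 libraries held Xist. Genotype and the sex of the donors therefore could not be told apart in full, although the study's methods describe its mice as sex-matched. WT replicate 3, the only WT library with Xist, also had the most reads. Within WT, donor sex, depth and replicate number thus could not be told apart. A Y-linked covariate mainly sets WT replicates 1 and 2 apart. The genotype change in that fit therefore rests mostly on WT replicate 3, as it does in the libraries with Xist. Values from the 4 libraries with Xist (1 WT and 3 Irf1-/-) are given beside each called member whose change they moved by more than 1.5 times. The tests there rest on 1 WT library, and most calls were lost while most log2 fold changes stayed within 1.5 times of their values in all libraries. The counts are given with the other fits. In such bulk cultures a lower level per cell and fewer cells that express a gene cannot be told apart.

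Of the 151 members, 18 were lower in Irf1-/- than in WT cells and 21 were higher (adjusted p below 0.05 by limma), with adjustment over all 11379 genes tested. Among all tested genes 12.4% were called lower and 11.4% higher, together 23.7%, and the 25.8% of members called lay near that share. The median log2 fold change of the members was -0.01, as against -0.00 for all tested genes, and the median size of the change was 0.18 against 0.17. In 32 members every Irf1-/- value lay below every WT value and in 33 every one lay above, which is 65 of 151 beside 40.5% of all tested genes whose groups did not overlap in either direction.

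**Figure D1:**
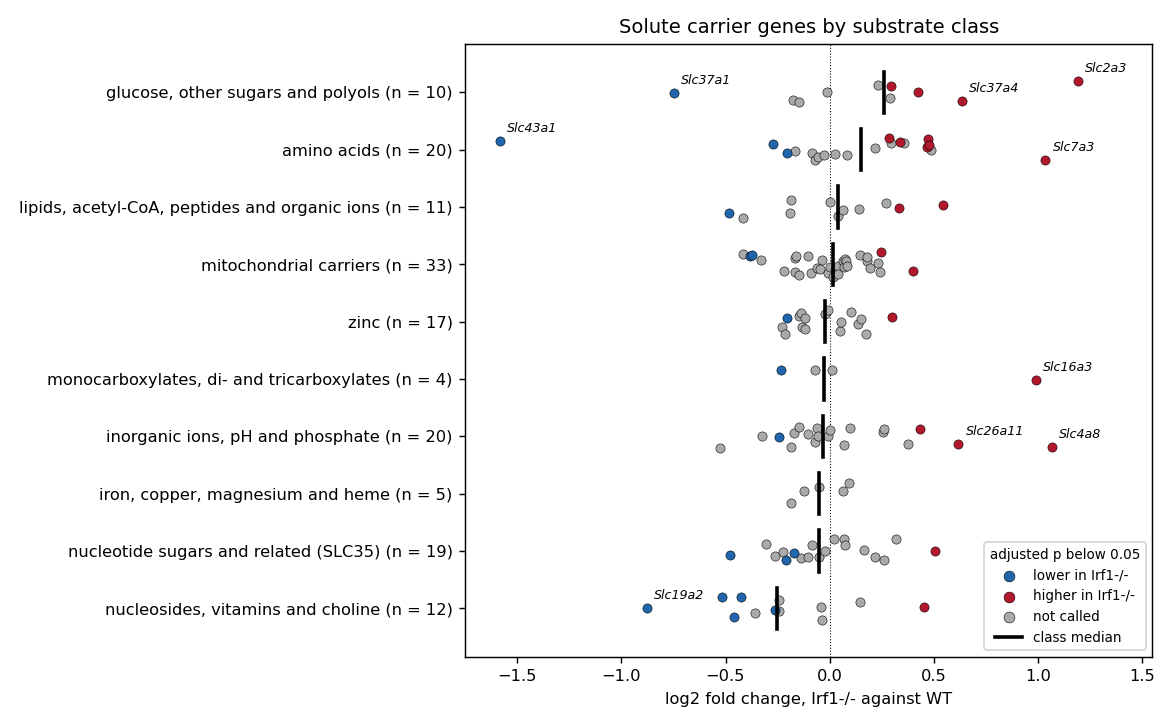
Log2 fold change of each of the 151 solute carrier genes (x axis, Irf1-/- against WT), in rows by substrate class with the number of members. Each point is a gene, blue where called lower, red where called higher and grey where not called, and the black bar is the class median, which runs from -0.25 for nucleosides, vitamins and choline to 0.26 for glucose, other sugars and polyols.

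Over all 6 libraries, carriers of glucose, other sugars and polyols had the highest class median, 0.26. Of their 10 members 4 were called higher and 1 lower. Amino acid carriers followed with a median of 0.15, 6 of 20 higher and 3 lower. At the other end stood carriers of nucleosides, vitamins and choline, with a median of -0.25, 5 of 12 lower and 1 higher, and 10 of the 12 below 0. The remaining classes had medians between -0.05 and 0.04, and leaving out single libraries turned the sign of several of these. In the mitochondrial class only 4 of 33 members were called, 2 in each direction, and in the zinc class 2 of 17. None of the 5 carriers of iron, copper, magnesium and heme was called in limma's test. These class counts and medians describe the lists and were not tested as sets.

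Changes were mostly modest. Log2 fold changes had a median size of 0.38 among the 18 called lower and 0.47 among the 21 called higher, and only Slc43a1, lower, and Slc2a3, Slc4a8 and Slc7a3, higher, differed by more than 1. Under 19 alternative fits with a test, 4 members were called lower in every fit (Slc43a1, Slc19a2, Slc37a1 and Slc23a2) and 6 were called higher in every fit (Slc3a2, Slc4a8, Slc7a3, Slc9a5, Slc16a3 and Slc17a9).

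Promoters of 4 called members are printed because each holds a short motif of a factor tied to interferon or nutrient signalling, and they show the letters behind the counts that follow. They come from RefSeq on build GRCm38.p6 and run from 250 bases before to 50 bases after the start annotated there. They are written 5′ to 3′ on the strand of the gene, with the motif match in capitals. In Slc43a1 and Slc37a1 that start lies inside the gene span given below, not at its 5′ end. In Slc43a1 the capitals mark CACGTG, the E-box read by factors of the MYC and TFE families, 64 bases before the start. In Slc37a1 and Slc4a8 they mark AANNGAAA on either strand, the core of the interferon-stimulated response element that IRF proteins bind, 35 and 198 bases before the start. In Slc1a4 they mark TGATGNAA on the opposite strand, the core of the amino acid response element bound by ATF4, beginning 4 bases before the start.
Slc43a1 (chr2:84840073-84840372, + strand): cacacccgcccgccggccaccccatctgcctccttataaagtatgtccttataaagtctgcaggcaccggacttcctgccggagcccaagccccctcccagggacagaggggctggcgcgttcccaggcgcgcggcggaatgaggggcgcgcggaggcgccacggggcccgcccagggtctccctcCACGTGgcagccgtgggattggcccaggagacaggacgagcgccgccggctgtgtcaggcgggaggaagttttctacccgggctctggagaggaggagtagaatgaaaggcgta
Slc37a1 (chr17:31295974-31296273, + strand): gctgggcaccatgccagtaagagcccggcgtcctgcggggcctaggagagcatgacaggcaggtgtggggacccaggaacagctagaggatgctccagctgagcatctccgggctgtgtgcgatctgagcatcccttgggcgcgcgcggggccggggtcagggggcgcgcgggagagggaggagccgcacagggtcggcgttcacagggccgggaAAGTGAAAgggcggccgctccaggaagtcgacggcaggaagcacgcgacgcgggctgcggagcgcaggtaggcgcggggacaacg
Slc4a8 (chr15:100761497-100761796, + strand): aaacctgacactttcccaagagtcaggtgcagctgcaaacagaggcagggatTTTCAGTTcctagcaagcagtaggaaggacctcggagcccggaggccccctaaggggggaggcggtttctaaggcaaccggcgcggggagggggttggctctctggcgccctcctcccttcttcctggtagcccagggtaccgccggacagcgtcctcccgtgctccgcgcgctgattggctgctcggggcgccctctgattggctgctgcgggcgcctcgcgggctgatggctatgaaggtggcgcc
Slc1a4 (chr11:20332664-20332963, - strand): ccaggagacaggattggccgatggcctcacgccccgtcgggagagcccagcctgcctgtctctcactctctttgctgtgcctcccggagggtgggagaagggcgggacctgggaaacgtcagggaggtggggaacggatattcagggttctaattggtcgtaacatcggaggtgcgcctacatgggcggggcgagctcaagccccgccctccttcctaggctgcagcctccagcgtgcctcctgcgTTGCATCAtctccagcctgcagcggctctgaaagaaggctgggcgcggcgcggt

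A promoter was listed for 113 of the 151 members, 11 of those called lower, 15 of those called higher and 87 not called. Searched on both strands, AANNGAAA was present for 3 of the 11 (Slc25a25, Slc29a3 and Slc37a1), 2 of the 15 (Slc4a8 and Slc30a9) and 13 of the 87, while 26.7% of all 27025 genes with a listed promoter held it. CACGTG was present for 2 of the 11 (Slc16a1 and Slc43a1), 0 of the 15 and 21 of the 87, beside 8.09% of all genes. TGATGNAA was present for 0 of the 11, 2 of the 15 (Slc1a4 and Slc50a1) and 1 of the 87, beside 4.51% of all genes. Such matches describe letters in a window and do not show that a factor was bound.

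Amino acid carriers held both the member with the deepest fall and a group that rose. Slc43a1 (ENSMUSG00000027075, chr2:84838850-84863594, positions here and below on GRCm38), which encodes LAT3, a sodium-independent carrier of leucine and other branched-chain amino acids, had normalized counts of 162, 143 and 143 in WT replicates 1 to 3 and 52.5, 48.5 and 46.7 in Irf1-/- replicates 1 to 3. All Irf1-/- values lay far below all WT values, and the mean was 149.5 ± 11.02 in WT and 49.2 ± 3.003 in Irf1-/- cells (SD, n = 3). Its change (log2 fold change -1.58, standard error 0.131, adjusted p = 2.83e-05 in limma's test) was the largest of any member called lower, and it ranged from -1.63 to -1.52 when each library was left out in turn.

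A second carrier of large neutral amino acids and its heavy chain were called in the other direction. Slc7a5 encodes LAT1, the exchanger that brings in leucine, tryptophan and methionine, and its normalized counts were 5781, 5697 and 7574 in WT replicates 1 to 3 and 8302, 7319.7 and 8280.4 in Irf1-/- replicates 1 to 3. WT replicate 3 lay above Irf1-/- replicate 2, so the groups overlapped although the change was called (log2 fold change 0.34, standard error 0.1001, adjusted p = 0.0332). The call was lost with Y-linked transcripts as a covariate, at 0.12 (adjusted p = 0.117), and in the 4 libraries with Xist, at 0.07 (adjusted p = 0.702). Slc3a2 encodes the CD98 heavy chain, the subunit that brings LAT1 and several other light chains to the cell surface, and had 2466, 2379 and 2771 in WT replicates 1 to 3 and 3575, 3593 and 3337 in Irf1-/- replicates 1 to 3. Here the groups stood apart, and the change (log2 fold change 0.47, standard error 0.0646, adjusted p = 0.000708) stayed called under all 19 alternative fits, at 0.34 (adjusted p = 0.0385) in the libraries with Xist. Per kilobase of exon, Slc7a5 stood at 1713 ± 286 in WT and 2149 ± 151 in Irf1-/- cells and Slc3a2 at 719 ± 58.3 in WT and 992 ± 40.6 in Irf1-/- cells. The ratio of the light to the heavy chain on that scale was 2.37 ± 0.201 in WT and 2.17 ± 0.214 in Irf1-/- cells (SD, n = 3), with overlapping values.

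Of the carriers of small neutral amino acids, Slc1a5, Slc1a4 and Slc6a9 were called higher as well. Slc1a5, the sodium-dependent exchanger of glutamine, alanine and serine known as ASCT2, had 4558, 4495 and 4581 in WT replicates 1 to 3 and 5702, 5780.3 and 5158 in Irf1-/- replicates 1 to 3. Its Irf1-/- values all exceeded its WT values, which lay close together (log2 fold change 0.29, standard error 0.0548, adjusted p = 0.00444). Its relative Slc1a4, or ASCT1, which exchanges alanine, serine and cysteine, had 388, 356 and 407 in WT replicates 1 to 3 and 578, 539 and 484 in Irf1-/- replicates 1 to 3 (log2 fold change 0.47, standard error 0.086, adjusted p = 0.00327). Slc6a9, the glycine carrier GLYT1, had 193, 174 and 248 in WT replicates 1 to 3 and 298, 283 and 269 in Irf1-/- replicates 1 to 3 (log2 fold change 0.48, standard error 0.125, adjusted p = 0.0187). In that gene WT replicate 3 lay nearer to the Irf1-/- cells than to the other WT libraries, and the change was 0.19 (adjusted p = 0.436) in the libraries with Xist. An annotated exon of B4galt2 overlaps Slc6a9, and since the use of strand in counting was not stated, reads of the pair cannot be told apart.

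Slc7a3 (ENSMUSG00000031297, chrX:101079210-101086020), the cationic amino acid carrier CAT3 for arginine, lysine and ornithine, rose most in this class. Its normalized counts were 267, 264 and 462 in WT replicates 1 to 3 and 633, 645 and 692 in Irf1-/- replicates 1 to 3, with a mean of 331 ± 113 in WT and 657 ± 31.3 in Irf1-/- cells (SD, n = 3). The Irf1-/- libraries lay in a narrow range above all WT libraries, of which replicate 3 was the highest (log2 fold change 1.04, standard error 0.177, adjusted p = 0.00232). The gene is on chromosome X. The change was 0.64 (adjusted p = 0.000247) with the Y-linked covariate and 0.50 in the libraries with Xist. Both values rest mostly on WT replicate 3. The more abundant arginine carrier Slc7a1 had 4036, 4045 and 4702 in WT replicates 1 to 3 and 4296, 3744 and 4009.5 in Irf1-/- replicates 1 to 3 and was not called, at -0.08 with a standard error of 0.0723. With the Y-linked covariate it was called lower, at -0.21 (adjusted p = 0.0233), and in the libraries with Xist it was at -0.23 (adjusted p = 0.163). Per kilobase of exon Slc7a1 stood at 369.6 ± 33.1 in WT and 348 ± 23.9 in Irf1-/- cells and Slc7a3 at 87.5 ± 29.98 in WT and 174 ± 8.28 in Irf1-/- cells.

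A pair of sodium-coupled carriers fell slightly. Slc6a6, which takes up taurine, had 2039, 2044 and 2040.2 in WT replicates 1 to 3 and 1717, 1616 and 1741 in Irf1-/- replicates 1 to 3, with WT values within a few counts of one another (log2 fold change -0.27, standard error 0.0517, adjusted p = 0.00424). Slc38a1, or SNAT1, a glutamine and alanine carrier, had 4460.2, 4226 and 4481 in WT replicates 1 to 3 and 4109.6, 3585 and 3754 in Irf1-/- replicates 1 to 3 (log2 fold change -0.20, standard error 0.0594, adjusted p = 0.0312). The groups did not overlap in either gene. Slc38a2, its close relative, had 2639, 2763 and 2779.6 in WT replicates 1 to 3 and 2740.1, 2505 and 2540.3 in Irf1-/- replicates 1 to 3 and was not called, at -0.07 with a standard error of 0.054. Slc7a6, another partner of the CD98 heavy chain, was not called either, at -0.17 with a standard error of 0.0651, although its values did not overlap. Slc7a11, the cystine and glutamate exchanger, had the largest standard error among the amino acid carriers, with 56.2, 43.3 and 89.7 in WT replicates 1 to 3 and 90.7, 128 and 52.4 in Irf1-/- replicates 1 to 3. It was higher in Irf1-/- cells among the smaller libraries and lower among the larger pair, and it was not called (log2 fold change 0.49 with a standard error of 0.322).

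**Figure D2:**
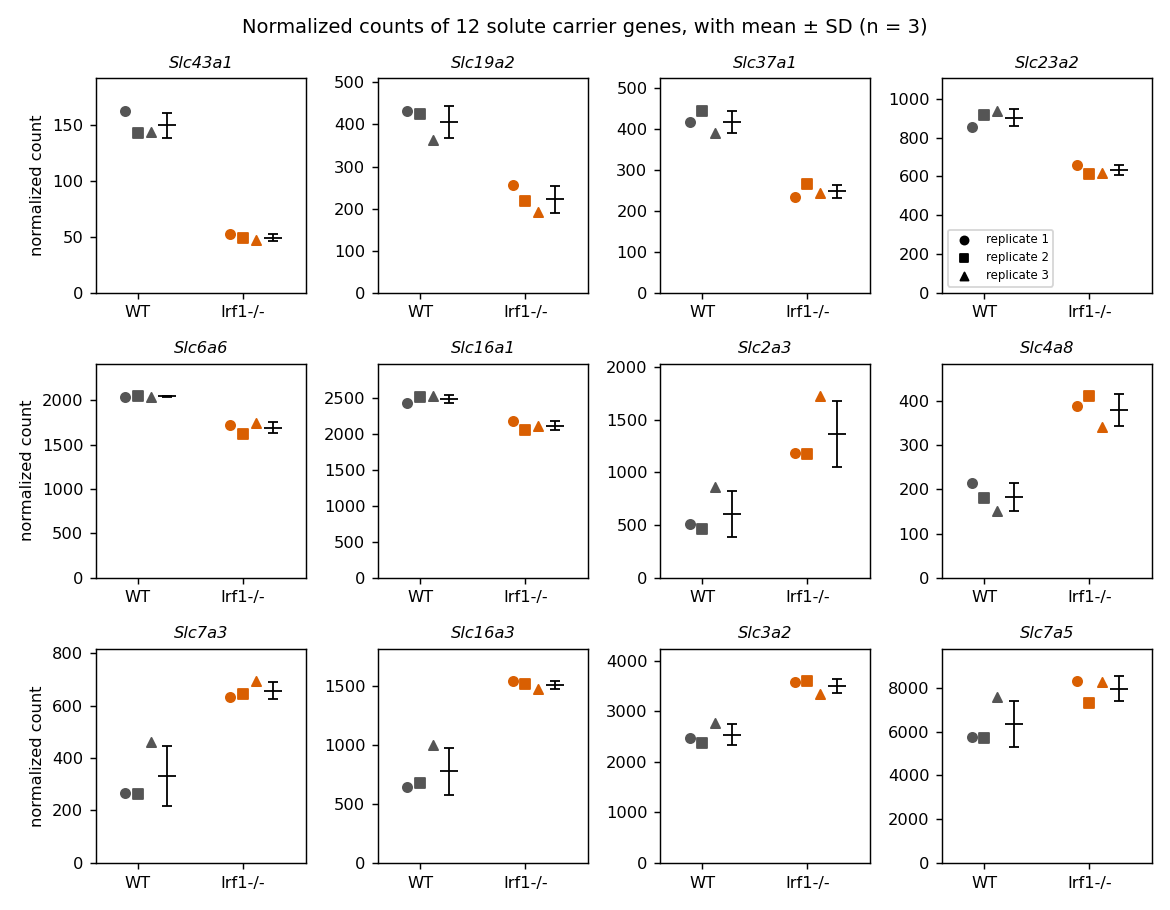
Normalized counts (y axes, from 0) of 12 solute carrier genes in the 3 WT (grey) and 3 Irf1-/- (orange) libraries, with symbols for replicate numbers and black bars for the mean ± SD (n = 3). Values of the first 6 genes are all lower in Irf1-/- cells, those of the last 6 are higher apart from an overlap in Slc7a5, and WT replicate 3 is the highest WT library in Slc2a3, Slc7a3, Slc16a3 and Slc7a5.

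Glucose uptake in T cells runs through GLUT1 and GLUT3. Slc2a3 (ENSMUSG00000003153, chr6:122727809-122801640), which encodes GLUT3, the carrier with the higher affinity, had normalized counts of 507, 459 and 858 in WT replicates 1 to 3 and 1186, 1172 and 1722 in Irf1-/- replicates 1 to 3. Every Irf1-/- value exceeded every WT value, and in each genotype replicate 3 was the highest. The mean was 608 ± 218 in WT and 1359.7 ± 314 in Irf1-/- cells (SD, n = 3), the largest rise of any member (log2 fold change 1.19, standard error 0.212, adjusted p = 0.00288). It was 0.73 (adjusted p = 0.00038) with the Y-linked covariate and 0.64 (adjusted p = 0.0681) in the libraries with Xist, where it was no longer called. Slc2a1, which encodes GLUT1, had 1243, 1274 and 1403 in WT replicates 1 to 3 and 1717, 1743 and 1371 in Irf1-/- replicates 1 to 3. Replicate 3 was lower in Irf1-/- than in WT cells, against the order of the other libraries, and the groups overlapped (log2 fold change 0.29, standard error 0.0907, adjusted p = 0.0384). In the 4 smaller libraries the change was 0.46, in the larger pair it was -0.03, and in the libraries with Xist it was 0.19 (adjusted p = 0.43). Per kilobase of exon Slc2a1 stood at 373 ± 24.2 in WT and 459 ± 59.3 in Irf1-/- cells and Slc2a3 at 83.9 ± 30.1 in WT and 188 ± 43.3 in Irf1-/- cells, and the ratio of Slc2a3 to Slc2a1 was 0.223 ± 0.0646 in WT and 0.422 ± 0.161 in Irf1-/- cells (SD, n = 3).

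Carriers of sugar phosphates in the endoplasmic reticulum moved in opposite directions. Slc37a4, the glucose-6-phosphate carrier that works with glucose-6-phosphatase, had 225, 244 and 285 in WT replicates 1 to 3 and 352, 429.9 and 389 in Irf1-/- replicates 1 to 3 (log2 fold change 0.64, standard error 0.108, adjusted p = 0.00227). Slc37a1 (ENSMUSG00000024036, chr17:31286792-31350739), a related exchanger of sugar phosphate and phosphate whose promoter is printed above, had 417, 444 and 390.3 in WT replicates 1 to 3 and 234, 265 and 244 in Irf1-/- replicates 1 to 3 (log2 fold change -0.75, standard error 0.0851, adjusted p = 0.000209). Neither gene's groups overlapped. The ratio of Slc37a4 to Slc37a1 per kilobase of exon was 2.46 ± 0.437 in WT and 6.39 ± 0.248 in Irf1-/- cells (SD, n = 3). Slc50a1, a sugar carrier of the Golgi, was also higher, with 263, 264 and 304 in WT replicates 1 to 3 and 373, 381 and 362 in Irf1-/- replicates 1 to 3 (log2 fold change 0.43, standard error 0.0839, adjusted p = 0.00506). The inositol carrier Slc5a3 and the lysosomal Slc2a6 and Slc2a8 were not called, with log2 fold changes of -0.18, -0.15 and 0.29. Slc2a6 was lowest in replicate 3 of both genotypes, at 726, 723 and 507 in WT replicates 1 to 3 and 648, 621 and 488 in Irf1-/- replicates 1 to 3.

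Lactate carriers also split. Slc16a3 (ENSMUSG00000025161, chr11:120948480-120960868), which encodes MCT4, the low-affinity carrier through which glycolytic cells export lactate and protons, had 645, 678 and 1002 in WT replicates 1 to 3 and 1538, 1519 and 1471 in Irf1-/- replicates 1 to 3. The Irf1-/- values were close together and all above the WT values, of which replicate 3 was the highest. The mean was 775 ± 197 in WT and 1509 ± 34.3 in Irf1-/- cells (SD, n = 3) (log2 fold change 0.99, standard error 0.134, adjusted p = 0.000603), and the change was 0.59 (adjusted p = 0.00323) in the libraries with Xist. Slc16a1, which encodes MCT1, the carrier of higher affinity, had 2426, 2516 and 2526 in WT replicates 1 to 3 and 2183, 2057 and 2112 in Irf1-/- replicates 1 to 3, all lower in Irf1-/- cells (log2 fold change -0.23, standard error 0.0502, adjusted p = 0.00778). Per kilobase of exon, Slc16a1 stood at 562 ± 12.5 in WT and 478 ± 14.3 in Irf1-/- cells and Slc16a3 at 146 ± 37.1 in WT and 284 ± 6.45 in Irf1-/- cells. The ratio of Slc16a3 to Slc16a1 on that scale was 0.221, 0.224 and 0.33 in WT replicates 1 to 3 and 0.586, 0.615 and 0.58 in Irf1-/- replicates 1 to 3, so that MCT1 transcripts stayed the more abundant in all 6 libraries. Slc16a6 and Slc16a13 were not called, at 0.01 with a standard error of 0.0683 and -0.07 with a standard error of 0.181.

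Vitamin carriers made up 3 of the 5 members called lower in the class of nucleosides, vitamins and choline. Slc19a2 (ENSMUSG00000040918, chr1:164249046-164265385), which encodes the thiamine carrier THTR1, had 432, 426 and 363 in WT replicates 1 to 3 and 256, 218 and 192 in Irf1-/- replicates 1 to 3, with every Irf1-/- value below every WT value. The mean was 407 ± 38.2 in WT and 222 ± 31.8 in Irf1-/- cells (SD, n = 3) (log2 fold change -0.88, standard error 0.114, adjusted p = 0.000481), and the change ranged from -0.98 to -0.78 when each library was left out. Slc23a2 (ENSMUSG00000027340, chr2:132052496-132145108), which encodes the sodium-coupled vitamin C carrier SVCT2, had 855, 917 and 936 in WT replicates 1 to 3 and 660.3, 614 and 619 in Irf1-/- replicates 1 to 3 (log2 fold change -0.52, standard error 0.064, adjusted p = 0.000361). Slc19a1, the reduced folate carrier, had 1415, 1397 and 1353 in WT replicates 1 to 3 and 1204, 1211 and 1059 in Irf1-/- replicates 1 to 3 (log2 fold change -0.26, standard error 0.0645, adjusted p = 0.0138). Slc25a32, counted with the mitochondrial carriers, takes folate into mitochondria and fell too, with 479, 444 and 447 in WT replicates 1 to 3 and 365, 351 and 342 in Irf1-/- replicates 1 to 3 (log2 fold change -0.37, standard error 0.072, adjusted p = 0.00465). The groups stood apart in all 4 genes, and the changes of Slc19a2 and Slc23a2 stayed called in the libraries with Xist, at -0.72 (adjusted p = 0.0341) and -0.57 (adjusted p = 0.00942). The riboflavin carrier Slc52a2 and the biotin and pantothenate carrier Slc5a6 were not called, at -0.04 with a standard error of 0.1 and -0.24 with a standard error of 0.13.

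Choline and nucleoside carriers were mixed. Slc44a1, a choline carrier, had 266, 249 and 182 in WT replicates 1 to 3 and 180.3, 173 and 147 in Irf1-/- replicates 1 to 3 (log2 fold change -0.46, standard error 0.145, adjusted p = 0.0423). WT replicate 3 lay beside the Irf1-/- libraries there, and the change shrank to -0.13 (adjusted p = 0.713) in the libraries with Xist. Slc29a3, the equilibrative nucleoside carrier of lysosomes, had 369, 332 and 337 in WT replicates 1 to 3 and 285, 212 and 282 in Irf1-/- replicates 1 to 3 (log2 fold change -0.42, standard error 0.117, adjusted p = 0.0243). Slc28a2, a concentrative carrier of purine nucleosides, was the one member of the class that was higher, with 163, 154 and 159 in WT replicates 1 to 3 and 196, 247 and 213 in Irf1-/- replicates 1 to 3 (log2 fold change 0.45, standard error 0.108, adjusted p = 0.0127). Slc29a1, the main equilibrative carrier of the plasma membrane, was not called, at -0.24 with a standard error of 0.0974, and neither was Slc43a3, the nucleobase carrier, at -0.04 with a standard error of 0.0535.

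Among carriers of inorganic ions, 3 of 20 members were higher and 1 was lower. Slc4a8 (ENSMUSG00000023032, chr15:100761747-100823968), the sodium-driven chloride and bicarbonate exchanger that raises intracellular pH and whose promoter is printed above, had 215, 180.3 and 151 in WT replicates 1 to 3 and 388, 411 and 341 in Irf1-/- replicates 1 to 3. The Irf1-/- values lay well above the WT values, with a mean of 182 ± 31.8 in WT and 379.7 ± 35.7 in Irf1-/- cells (SD, n = 3) (log2 fold change 1.07, standard error 0.128, adjusted p = 0.000286). In the libraries with Xist its change was 1.32 (adjusted p = 0.000628). Slc9a5, a sodium and proton exchanger, had 426, 428 and 392 in WT replicates 1 to 3 and 611, 559 and 515 in Irf1-/- replicates 1 to 3 (log2 fold change 0.43, standard error 0.0806, adjusted p = 0.00371). Slc26a11, an anion carrier, had 54.9, 54.1 and 53.5 in WT replicates 1 to 3 and 70.4, 108 and 76.7 in Irf1-/- replicates 1 to 3, with Irf1-/- replicate 2 the highest (log2 fold change 0.62, standard error 0.178, adjusted p = 0.0295). The sodium, potassium and chloride cotransporter Slc12a2 had 746, 720.1 and 674 in WT replicates 1 to 3 and 604, 656 and 549 in Irf1-/- replicates 1 to 3 (log2 fold change -0.24, standard error 0.0781, adjusted p = 0.0441). The phosphate carrier Slc20a1 was not called, at -0.15 with a standard error of 0.0808. The widest spread within genotypes in this class was in Slc4a11, with 271, 307 and 101 in WT replicates 1 to 3 and 222, 189 and 66.5 in Irf1-/- replicates 1 to 3, where both libraries of replicate 3 lay far below the rest.

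The mitochondrial carriers ranged widely in level, and 29 of 33 were not called. Per kilobase of exon the ADP and ATP carrier Slc25a5 was the highest member, at 2579 ± 69.7 in WT and 2699 ± 14.98 in Irf1-/- cells, followed by Slc7a5, Slc25a4, the phosphate carrier Slc25a3 and Slc1a5. Slc25a5 was not called at 0.07 with a standard error of 0.0467, nor was Slc25a3 at -0.09 with a standard error of 0.0575. Besides Slc25a32, a single carrier was called lower, Slc25a25, a calcium-regulated exchanger of ATP-magnesium and phosphate, with 347, 305 and 357 in WT replicates 1 to 3 and 227, 249.6 and 300.4 in Irf1-/- replicates 1 to 3 (log2 fold change -0.38, standard error 0.112, adjusted p = 0.0315). An annotated exon of Naif1 overlaps that gene. Its relative Slc25a23 was higher, with 114, 97.4 and 114 in WT replicates 1 to 3 and 130.1, 146 and 155 in Irf1-/- replicates 1 to 3 (log2 fold change 0.40, standard error 0.122, adjusted p = 0.0369). Slc25a39, which carries glutathione into mitochondria, had 946, 893 and 899.9 in WT replicates 1 to 3 and 1116, 1068 and 1063 in Irf1-/- replicates 1 to 3 and stood apart between the genotypes (log2 fold change 0.25, standard error 0.0566, adjusted p = 0.0108).

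In the class of lipids, peptides and organic ions 2 of 11 members were higher and 1 lower. Slc17a9, the vesicular nucleotide carrier that loads ATP into vesicles and lysosomes, had 358, 310.2 and 329 in WT replicates 1 to 3 and 467, 496 and 492 in Irf1-/- replicates 1 to 3 (log2 fold change 0.55, standard error 0.0779, adjusted p = 0.000836). Slc27a4, a fatty acid transport protein, had 157, 150.3 and 169.7 in WT replicates 1 to 3 and 193, 221 and 189 in Irf1-/- replicates 1 to 3 (log2 fold change 0.33, standard error 0.104, adjusted p = 0.0397). Slc15a3, a lysosomal carrier of histidine and peptides known as an interferon-inducible gene of innate immune cells, had 377, 389.5 and 307 in WT replicates 1 to 3 and 251, 266 and 245 in Irf1-/- replicates 1 to 3, all lower in Irf1-/- cells (log2 fold change -0.49, standard error 0.101, adjusted p = 0.00649). An annotated exon of Tmem132a overlaps Slc15a3, and the change was -0.27 (adjusted p = 0.251) in the libraries with Xist. The related Slc15a4 was not called, at -0.19 with a standard error of 0.109.

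The SLC35 class had 3 of 19 members called lower and 1 higher. The lower ones were Slc35e2 (log2 fold change -0.48, standard error 0.0761, adjusted p = 0.00161), which an exon of the annotated gene Gm16023 overlaps, Slc35e1 at -0.21 (adjusted p = 0.0319) and Slc35a4 at -0.17 (adjusted p = 0.0462). Slc35e2 had 564, 511 and 499 in WT replicates 1 to 3 and 396, 368 and 366 in Irf1-/- replicates 1 to 3, and Slc35d3, the one called higher, had 93.6, 70.9 and 81.8 in WT replicates 1 to 3 and 111, 122 and 116 in Irf1-/- replicates 1 to 3 (log2 fold change 0.50, standard error 0.137, adjusted p = 0.023). The carriers of CMP-sialic acid, Slc35a1, UDP-galactose, Slc35a2, and GDP-fucose, Slc35c1, were not called, at log2 fold changes of 0.07, 0.17 and -0.02.

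Of the 17 zinc carriers 2 were called. Slc30a9 had 408, 414 and 465 in WT replicates 1 to 3 and 517, 535 and 527 in Irf1-/- replicates 1 to 3 and was higher (log2 fold change 0.30, standard error 0.0734, adjusted p = 0.0145), though only 0.18 (adjusted p = 0.346) in the libraries with Xist. Slc39a10, a zinc importer of the plasma membrane with a known part in lymphocyte survival, had 552, 537 and 520.0 in WT replicates 1 to 3 and 451, 472 and 472 in Irf1-/- replicates 1 to 3 and was lower (log2 fold change -0.21, standard error 0.0652, adjusted p = 0.0429). Slc30a1, the zinc exporter that is a standard target of the metal-responsive factor MTF1, was not called, at -0.13 with a standard error of 0.128, and Slc39a14 was not, at -0.01 with a standard error of 0.0714. The iron importer Slc11a2 was not called, at 0.06 with a standard error of 0.084, in a class of 5 metal and heme carriers whose log2 fold changes lay between -0.19 and 0.09.

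**Figure D3:**
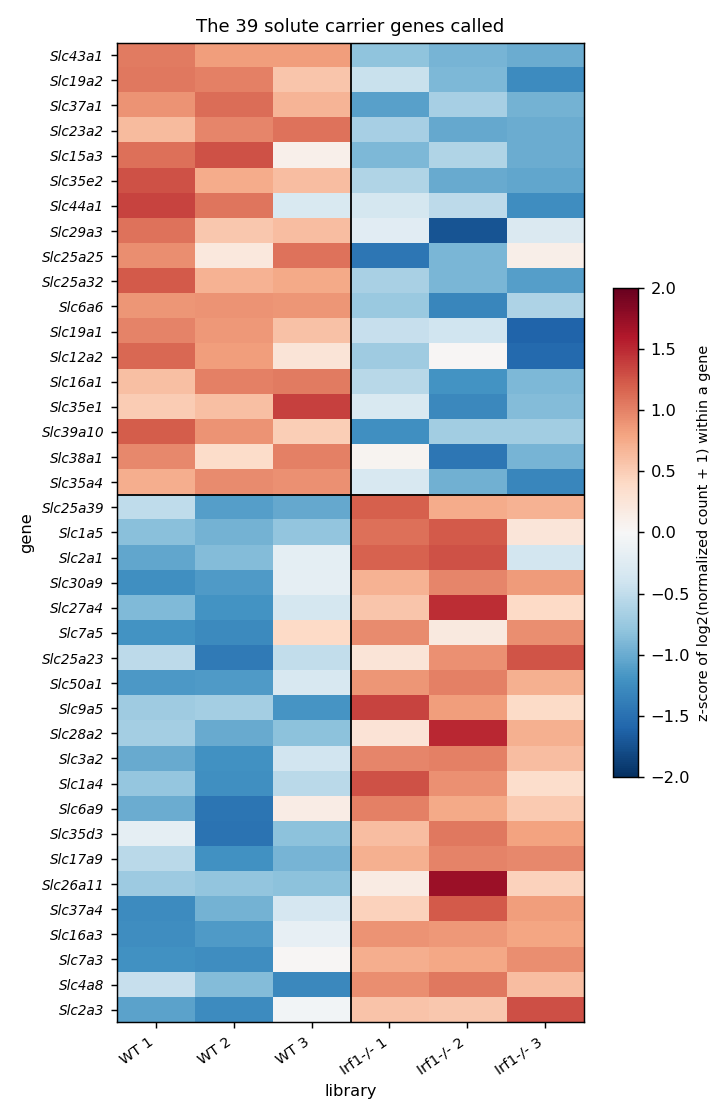
Each row is a called solute carrier gene, 18 lower above the line and 21 higher below it, and each column is a library. Colour gives the z-score of log2(normalized count + 1) within a gene, from blue (below its mean over the 6 libraries) to red, and WT replicate 3 is paler than WT replicates 1 and 2 in many of the higher genes, among them Slc7a5, Slc6a9, Slc7a3 and Slc2a3.

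Among the 112 members not called, 28 had groups that did not overlap, which is 25% of them beside 22.6% of all tested genes that were not called. An interval of 2 standard errors reached 0.19 to either side of the estimate in the median of the 112, and 0.92 in Slc4a11, so that it held changes of modest size for most of them. The called members lay on many chromosomes. Only Slc36a1 lay within 10 Mb of Irf1, and it was not called. Of the members on chromosome X, only Slc7a3 was called.

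The libraries were not alike within the genotypes. Replicate 3 of both genotypes lay beyond the other 4 libraries, both above or both below, in 26 members, which is 17.2% of members beside 17.6% of all tested genes. Among the 4 smaller libraries all 18 lower members and all 21 higher members kept their direction, and in the larger pair 18 and 20 did, Slc2a1 being the exception. In that pair, which allows no test, the log2 fold change was smaller by more than 1.5 times in 4 of the lower and 10 more of the higher members. Slc16a3 stood at 0.55 there, Slc7a3 at 0.58, Slc3a2 at 0.27, Slc1a4 at 0.25, Slc1a5 at 0.17 and Slc6a9 at 0.12. In the 4 libraries with Xist every called member kept its direction, but only 4 of the 18 and 6 of the 21 were still called with 1 WT library, the same 10 genes that were called in every fit. The other 29 calls were lost there, where the median standard error of the 39 was 0.119 beside 0.0860 in all libraries. In 22 of the 29 the log2 fold change stayed within 1.5 times of its value in all libraries, and in 7 of these it was at least as large, as in Slc25a25 (-0.38 in all libraries and -0.47 there), Slc26a11 (0.62 in all libraries and 0.64 there) and Slc16a1 (-0.23 in all libraries and -0.26 there). In the other 7 it was smaller by more than 1.5 times, and these were Slc2a3, Slc7a5, Slc6a9, Slc2a1, Slc30a9, Slc44a1 and Slc15a3. With Y-linked transcripts as a covariate 14 of the 18 and 14 of the 21 were called. That fit and the one in the libraries with Xist are not separate checks on donor sex. Both compare mainly WT replicate 3 with the Irf1-/- libraries. Without each single library in turn 9 of the 18 and 11 of the 21 stayed called. The lower members that lost their call without at least 1 library were Slc44a1 (log2 fold changes of -0.63 to -0.35), Slc29a3 (-0.50 to -0.28), Slc25a25 (-0.49 to -0.29), Slc19a1 (-0.30 to -0.20), Slc12a2, Slc35e1, Slc39a10, Slc38a1 and Slc35a4. The higher ones were Slc26a11 (0.43 to 0.74), Slc35d3 (0.41 to 0.60), Slc6a9 (0.37 to 0.62), Slc28a2 (0.36 to 0.53), Slc7a5 (0.27 to 0.47), Slc2a1 (0.23 to 0.41), Slc30a9, Slc25a23, Slc27a4 and Slc25a39. Leaving out WT replicate 2 ended the call of all 19 of these genes except Slc25a25. The position on the log2 scale of WT replicate 3 between the other WT libraries (0) and the Irf1-/- mean (1) had a median of 0.37 over the higher members and 0.12 over the lower ones, beside 0.17 and 0.02 over all genes called higher and lower. On that scale it lay past the midpoint in 5 higher members (Slc7a5, Slc6a9, Slc7a3, Slc2a3 and Slc16a3) and in 2 lower ones (Slc44a1 and Slc15a3). The part of donor sex in these values was not tested further.

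**Figure D4:**
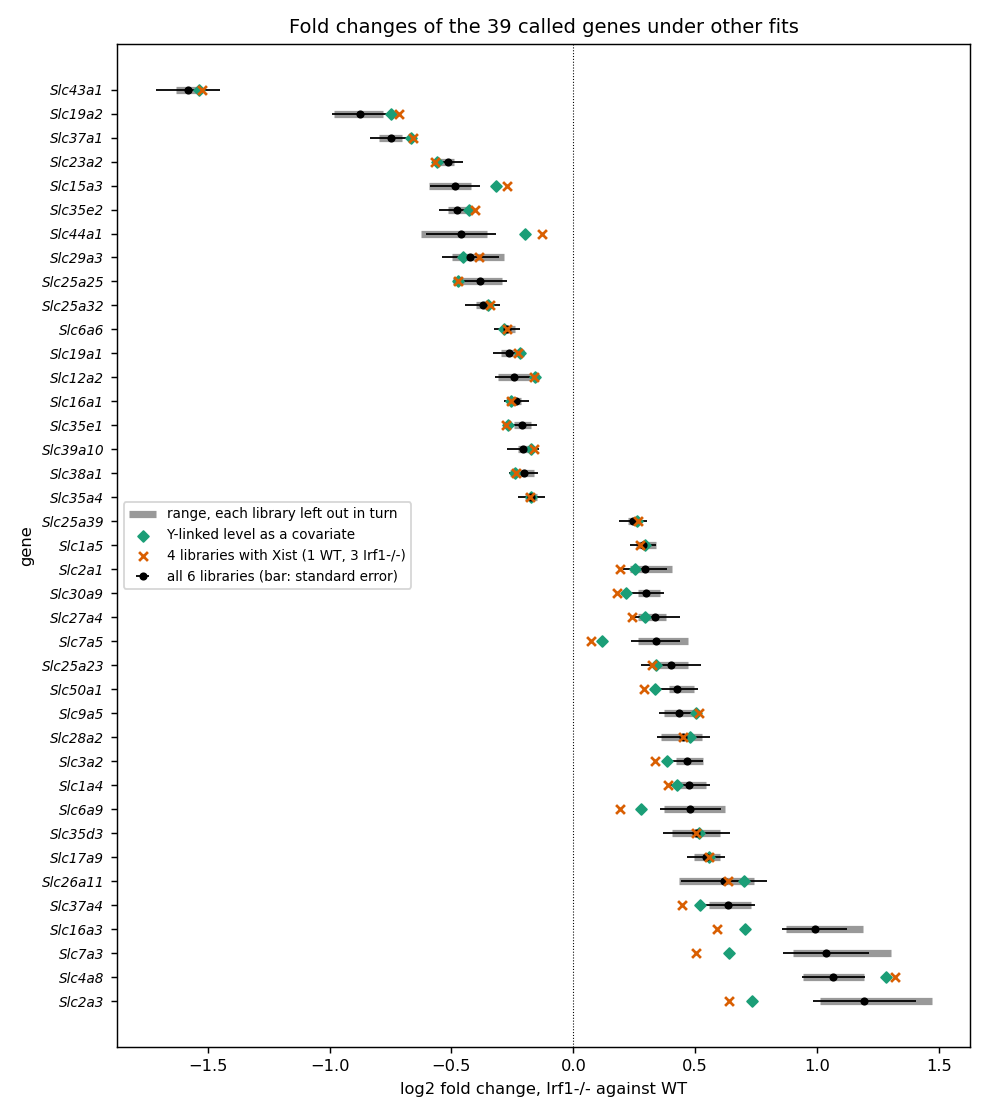
Log2 fold change (x axis, Irf1-/- against WT) of the 39 called genes in all 6 libraries (black, bar for the standard error), with the range when each library was left out (grey), with a Y-linked covariate (green diamonds) and in the 4 libraries with Xist (orange crosses). No point crosses 0, and the crosses lie nearest to 0, relative to the black points, for Slc7a5, Slc44a1 and Slc6a9.

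Proteins that work with solute carriers were read from lists of 28 carriers under other symbols, 8 subunits, anchors or chaperones and 19 regulators. The lists were written with earlier results of these data known, and their counts stand beside 12.4% of all tested genes called lower and 11.4% called higher. Of the 25 other carriers tested, 2 were lower and 4 were higher. Slco4a1, an organic anion carrier, had 107, 91.4 and 99.6 in WT replicates 1 to 3 and 213, 193 and 188 in Irf1-/- replicates 1 to 3 (log2 fold change 0.99, standard error 0.112, adjusted p = 0.000211). Mfsd2a, the carrier of lysophosphatidylcholine, changed by 0.56 (adjusted p = 0.00131), the mitochondrial carrier Ucp2 by 0.36 (adjusted p = 0.0138) and Slco3a1 by 0.27 (adjusted p = 0.0123). With the Y-linked covariate Ucp2 was at 0.20 (adjusted p = 0.0411). Lower were Mfsd1, at -0.39 (adjusted p = 0.00598), and the heme and choline carrier Flvcr1, at -0.24 (adjusted p = 0.0376), which was lost with the Y-linked covariate, at -0.18 (adjusted p = 0.179). The subunits of the mitochondrial pyruvate carrier, Mpc1 and Mpc2, were not called, at 0.29 with a standard error of 0.145 and 0.21 with a standard error of 0.143.

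Of 7 partner proteins tested, 2 were higher and 1 lower. Bsg encodes basigin, the chaperone that takes MCT1 and MCT4 to the membrane, and had 2662, 2767 and 2732 in WT replicates 1 to 3 and 3256, 3385 and 3392 in Irf1-/- replicates 1 to 3 (log2 fold change 0.30, standard error 0.048, adjusted p = 0.00169), without overlap between the genotypes. Emb, an alternative chaperone of MCT1, was not called, at -0.18 with a standard error of 0.0927. Slc9a3r1, which is named for the sodium and proton exchanger it anchors and is itself no carrier, changed by 0.33 (adjusted p = 0.0135), and by 0.19 (adjusted p = 0.0671) with the Y-linked covariate. Bcap31 changed by -0.21 (adjusted p = 0.0263), a call that was lost under 9 of the 19 alternative fits.

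On the list of regulators 7 of the 18 tested were higher and 2 lower, and the calls of 4 of these 9 genes, Atf4, Ddit3 and Arrdc4 among them, were lost with the Y-linked covariate. Sgk1, a kinase that keeps several carriers at the cell surface, had 89.9, 92.6 and 138 in WT replicates 1 to 3 and 718, 695 and 829.5 in Irf1-/- replicates 1 to 3 (log2 fold change 2.82, standard error 0.150, adjusted p = 1.25e-06), the largest change on the list. Metallothioneins, which bind zinc and whose genes respond to it through MTF1, were both higher, Mt1 with 96.1, 99.8 and 129 in WT replicates 1 to 3 and 337, 387 and 315 in Irf1-/- replicates 1 to 3 (log2 fold change 1.67, standard error 0.131, adjusted p = 1.97e-05) and Mt2 at 1.31 (adjusted p = 0.00138). Txnip, an arrestin that draws glucose carriers from the surface, had 112, 131 and 125 in WT replicates 1 to 3 and 217, 247 and 197 in Irf1-/- replicates 1 to 3 (log2 fold change 0.84, standard error 0.116, adjusted p = 0.000706), whereas its relative Arrdc4 fell from 18.7, 20.4 and 12.3 to 4.78, 9.71 and 6.39 in replicates 1 to 3 (log2 fold change -1.21, standard error 0.373, adjusted p = 0.0388), and was at -0.82 (adjusted p = 0.232) with the covariate. Atf4 and Ddit3, factors of the amino acid response, changed by 0.26 (adjusted p = 0.0261) and 0.998 (adjusted p = 0.0197). Both had WT replicate 3 above the other WT libraries, and with the Y-linked covariate their changes were 0.12 (adjusted p = 0.111) and 0.49 (adjusted p = 0.0761). Tfrc, the transferrin receptor, was lower, with 9478, 9513 and 10359 in WT replicates 1 to 3 and 7836, 7142 and 7501 in Irf1-/- replicates 1 to 3 (log2 fold change -0.38, standard error 0.0564, adjusted p = 0.000994). Myc and Hif1a, both known activators of glucose and amino acid carrier genes, were not called, at 0.02 with a standard error of 0.135 and 0.06 with a standard error of 0.177, and both were highest in replicate 3 of each genotype. With the Y-linked covariate Myc was called lower, at -0.27 (adjusted p = 0.0153), and Hif1a was at -0.28 (adjusted p = 0.119).

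**Figure D5:**
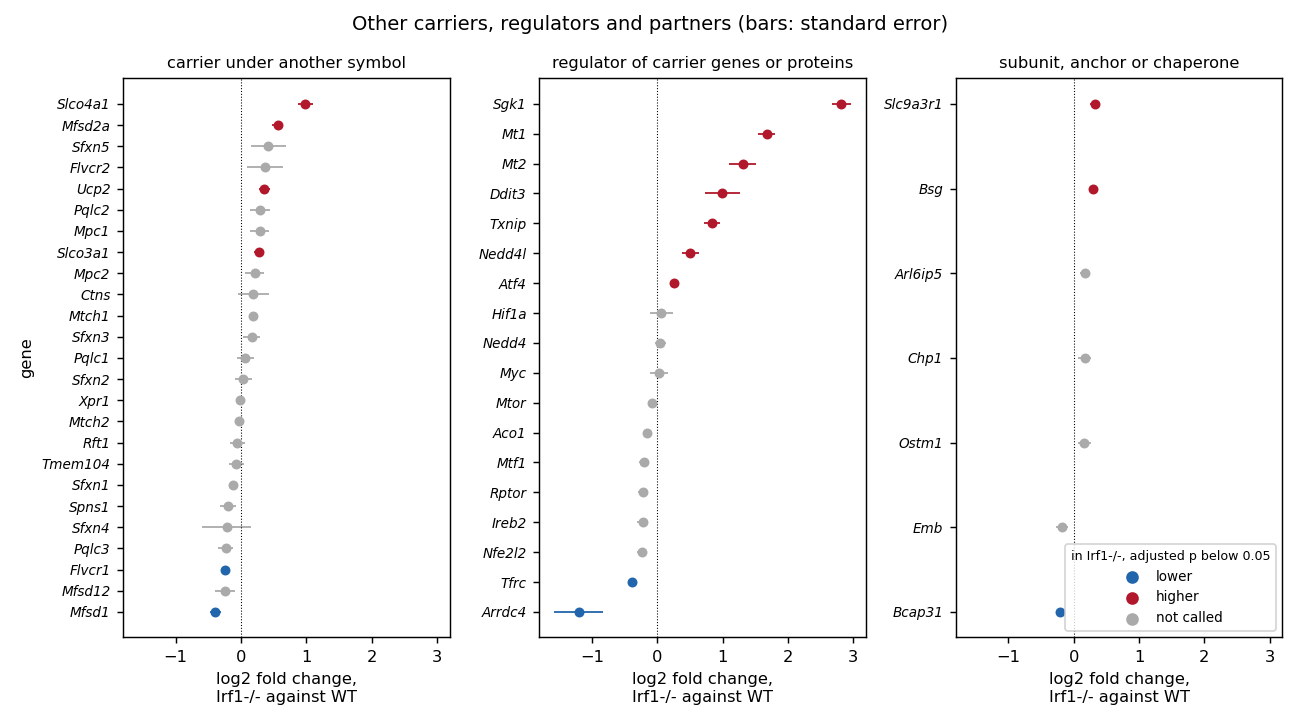
Log2 fold change (x axes, Irf1-/- against WT) of carriers under other symbols, regulators of carriers, and subunits, anchors or chaperones, with bars for the standard error. Points are blue where lower, red where higher and grey where not called at an adjusted p below 0.05, and Sgk1, at 2.82, stands farthest from 0.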

How the data were processed

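Poly(A) RNA was read as single-end sequence. Per the labels and the methods of the study, the authors aligned reads to GRCm38 with STAR 2.4.0b, obtained a count for each Ensembl gene from featureCounts and scaled it with DESeq2 1.12.3. The signal the authors deposited is that scaled (normalized) count, the count over the size factor of the library, and whole reads, within 0.01 of a read, were recovered for 100% of values above 0. The use of strand in counting was not given in the sources used here. Symbols, positions and exon lengths came from the reference annotation of the same build by Ensembl identifier.

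Genotypes were compared with limma 3.58.1 in R 4.3.3 (eBayes with a trend) on log2(normalized count + 1), so that fold changes are on that scale, for the 11379 genes with a mean of at least 10. Values were adjusted by Benjamini-Hochberg over all of them and called at 0.05. The fit was also run on simulated data, and the outcome of that run is not reported here. Alternatives were pseudocounts of 0.1 and 10, other filters, quantile and TMM scaling, no trend, a replicate block, a Y-linked covariate, subsets of libraries, each library left out, and the count models of DESeq2 1.42.0 and edgeR 4.0.16 run on recovered reads. Members, classes, partner lists and tests were chosen with earlier results of these data known, and classes and lists were written from general knowledge of substrates. Named are the 10 largest called changes in each direction without overlap, the smallest adjusted p in each class, a list of carriers known from T cell metabolism and genes at the mean of 50, within 10 Mb of Irf1 or on chromosome X. Slc11a1 of that list, with a mean of 4.46, was neither a member nor tested. Other genes are named after their values were seen, as relatives of these or to show where the libraries differ. Not every gene that this rule names is reported here. The partner Ankh was not matched to a symbol.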

Additional observations from a re-analysis of the deposited data

How the results depend on the processing

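With 18 members called lower, the count was 11 without a trend, 29 with a replicate block, 31 in the 4 smaller libraries, 4 in the libraries with Xist, and 9 to 21 when each library was left out, falling to 9 without WT replicate 1, 10 without WT replicate 2 and 11 without Irf1-/- replicate 2. With 21 called higher, it was 6 in the libraries with Xist and 11 to 24 with each library left out, 11 without WT replicate 2 and 13 without Irf1-/- replicate 2. With 1 WT library, that library is assumed to vary like the Irf1-/- libraries. The median of the members, -0.01, became 0.0201 with the Y-linked covariate and ranged from -0.0247 to 0.025 with a library left out.

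Class medians moved beyond the spread of the libraries in several settings. With the Y-linked covariate they were 0.10 for amino acids, 0.20 for glucose and sugars and 0.059 for inorganic ions. In the libraries with Xist they were 0.0563, 0.193 and 0.0600 for these and -0.15 for nucleosides and vitamins. In the larger pair they were 0.0891 for amino acids, 0.167 for sugars and -0.14 for monocarboxylates. In the smaller libraries they were 0.15 for sugars, below the 0.162 for amino acids, and -0.0202 for SLC35, which was -0.0367 in DESeq2. With each library left out the ranges were 0.12 to 0.171 for amino acids, 0.161 to 0.262 for sugars, -0.0636 to 0.0376 for inorganic ions, -0.122 to 0.00846 for iron, copper, magnesium and heme (-0.05 in all libraries), -0.103 to 0.0535 for monocarboxylates (-0.03 in all libraries), -0.0848 to 0.0889 for lipids and peptides, -0.0166 to 0.032 for mitochondrial carriers, -0.317 to -0.157 for nucleosides and vitamins, -0.0818 to -0.0102 for SLC35 and -0.0872 to 0.0245 for zinc. Slc2a1 was -0.0338 in the larger pair against 0.29 in all libraries. The causes of these shifts were not tested.

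The main fit did not pair the samples by replicate number. Same-numbered deviations correlated at 0.092, 0.269 and 0.321, and every sample correlated best with its own number. The main fit thus makes no allowance for an effect shared by replicates of the same number. The block raised the count of lower members to 29 and of higher members to 28. Depth limits the low members most: at a mean near 50, 3 reads are up to 4.16 normalized counts, a floor that covers counting error only.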

Other observations

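A further 32 solute carrier genes had a mean between 10 and 50 and were tested without being members. Of these, 1 was called lower and 3 higher. Slc1a2, the glutamate carrier GLT-1, fell, with 54.9, 63.7 and 75.6 in WT replicates 1 to 3 and 15.5, 22.2 and 23.01 in Irf1-/- replicates 1 to 3 (log2 fold change -1.64, standard error 0.223, adjusted p = 0.000623 in limma's test). Slc4a4, a sodium and bicarbonate cotransporter, rose, with 12.5, 13.2 and 12.9 in WT replicates 1 to 3 and 34.6, 38.8 and 30.04 in Irf1-/- replicates 1 to 3 (log2 fold change 1.35, standard error 0.238, adjusted p = 0.00277). The mitochondrial carrier Slc25a53, on chromosome X, and the anion carrier gene Slc26a10 were the other genes called higher, at 0.79 (adjusted p = 0.0145) and 0.88 (adjusted p = 0.0301). A pair of genes among the 32, named after their values were seen, stood out by library and not by genotype. Slc7a2, an arginine carrier, had 11.2, 8.42 and 4.92 in WT replicates 1 to 3 and 14.3, 135 and 10.2 in Irf1-/- replicates 1 to 3, and the library with its highest value, Irf1-/- replicate 2, also had the highest sum of myeloid markers, 1039; their part in the value was not tested. Slc15a2, a peptide carrier, had 0, 34.9 and 0 in WT replicates 1 to 3 and 37.01, 45.8 and 0 in Irf1-/- replicates 1 to 3, so that in both genotypes some libraries held no read of it. The 3 libraries that held it were the 3 with the most Itgam, a myeloid marker, with 1.25, 13.2 and 4.3 in WT replicates 1 to 3 and 15.5, 45.8 and 2.56 in Irf1-/- replicates 1 to 3, and the part of such cells in the values was not tested.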
